A study of Mus musculus with 10 samples.

Results

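The genes described here encode proteins that fuse and divide mitochondria and couple them to motors in axons, and they were taken by name: Opa1, Mfn1, Mfn2, Dnm1l, Fis1, Rhot1, Rhot2, Trak1, Trak2 and Armcx1. They are 10 of the 34254 genes counted in each library, and all 10 had enough counts to be tested. Retinal ganglion cells (RGCs), the neurons whose axons form the optic nerve, were profiled by scRNA-seq in 6 uninjured libraries and in 4 libraries made 2 weeks after optic nerve crush (ONC), an injury that severs these axons. By the labels the mice were wild-type 129S1/SvImJ, 12 weeks old (P84) and of both sexes. Each batch pooled 10 retinas, from which RGCs were captured by immunopanning for the surface protein Thy1 after depletion of macrophages (the study's methods add amacrine cells, which the labels do not name), so that a sample is a pool of animals and holds the RGCs that remained at that time.

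Mitochondria in neurons join and split continuously. Opa1 fuses the inner membrane and the mitofusins Mfn1 and Mfn2 fuse the outer membrane, whereas the dynamin-related GTPase Dnm1l constricts and divides the organelle and Fis1 is an outer membrane protein of the fission machinery. The Miro GTPases, encoded by Rhot1 and Rhot2, sit in the outer membrane and bind the adaptors Trak1 and Trak2, which link mitochondria to kinesin and dynein on axonal microtubules. Armcx1 is an outer membrane protein that promotes mitochondrial movement in axons, and mutations of OPA1 and MFN2 in people cause optic nerve degeneration.

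The libraries held 1683 uninjured and 1609 injured cells, where barcodes found in both injured 3 and injured 4 are counted in each. Total counts of unique molecular identifiers (UMIs, each of which marks 1 captured RNA molecule) were 2839693 to 23180399 per uninjured library and 4698799 to 8860536 per injured library. Of the 527 cell barcodes of injured 3 and the 471 of injured 4, 421 were found in both, and the counts of these libraries differed little beyond sampling noise (median chi-square over noise 1.01), so they were averaged and counted as 1 sample (injured 3/4). This left 6 uninjured and 3 injured samples. Some other libraries were also close to each other. The same ratio was 1.53 for uninjured 5 and 6, 1.91 for uninjured 3 and 4, 1.92 for uninjured 1 and 2, and 2.46 for injured 1 and 2. It grows with the UMI totals of the libraries, so ratios of pairs of unlike depth cannot be compared directly. Uninjured 5 and 6 stood apart from uninjured 1 to 4, without overlap in either direction for 58.5% of the 14234 genes tested. The reporter mCherry had UMIs in 7.99% of cells in injured 1, 15.0% in injured 2, 85.1% in injured 3/4 and no uninjured cell. Xist, a transcript of female cells, was found in 62.1% of cells in injured 1 and 67.4% in injured 2, and no other sample exceeded 0.461%, so female cells were nearly absent from all 6 uninjured samples and from injured 3/4, although the labels give both sexes. The labels name no vector, and since mCherry was found after injury alone, injury and whatever brought mCherry cannot be told apart in any comparison of the conditions. The labels do not say that the libraries came from separate animals, so a p-value measures the spread between these samples, part of which may be technical.

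For each sample the UMIs of all its cells were added up, and levels are given as CPM, counts of a gene per 1000000 counts of its sample, after TMM scaling. Injured samples were compared with uninjured samples over the 14234 genes that passed a filter on low counts. In this test 44.0% of all genes tested were past the threshold of an adjusted p of 0.05 (edgeR's quasi-likelihood test, Benjamini-Hochberg adjustment), with 21.3% higher and 22.7% lower after injury. The values of the conditions were fully separate for 42.9% of genes, 21.9% higher and 21.1% lower. Of the 10 genes, 1 was past the threshold, the fission gene Dnm1l, and for the same gene alone the conditions were fully separate. The median log2 fold change was -0.18 over the 10 genes and -0.03 over all genes tested. The 9 other genes had log2 fold changes from -0.41 to 0.22, with adjusted p from 0.177 to 0.990 by edgeR quasi-likelihood, Benjamini-Hochberg, which does not show that they were unaltered.

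**Figure D1:**
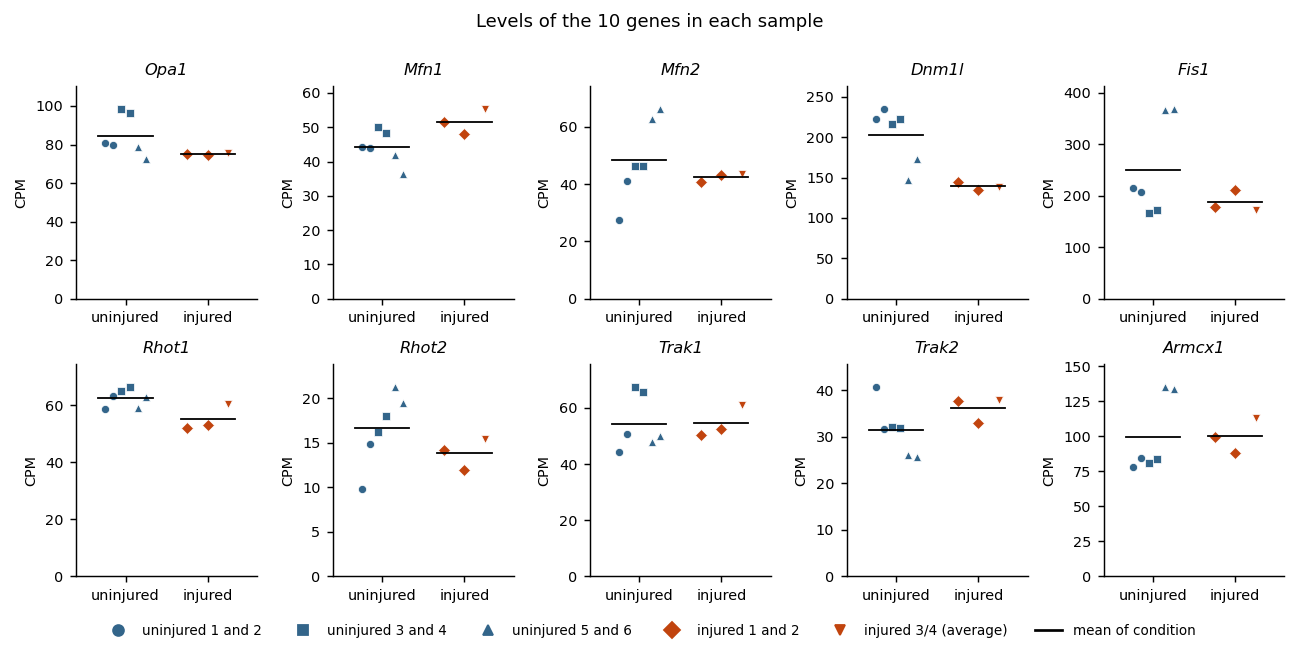
Level of each gene (CPM) in 6 uninjured samples (blue) and 3 injured samples (red), with similar libraries drawn with the same symbol and the condition mean as a line. Dnm1l is the gene whose injured samples, at 135 to 145 CPM, all lie under the uninjured ones, and uninjured 5 and 6 lie far above the other uninjured samples for Fis1 and Armcx1.

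Among the fusion genes, Opa1 was present at 72.3 CPM in the lowest, 80.2 CPM in the median and 98.4 CPM in the highest uninjured sample, and at 74.9, 74.8 and 75.7 CPM in injured 1, injured 2 and injured 3/4. The injured samples were close to each other and lay within the uninjured range, whose high values came from uninjured 3 and 4. The log2 fold change was -0.17 (standard error (SE) 0.13, adjusted p = 0.314 by edgeR quasi-likelihood, Benjamini-Hochberg). Mfn1 was present at 36.5, 44.1 and 49.9 CPM in the lowest, median and highest uninjured sample and at 51.5, 48.1 and 55.3 CPM in the injured samples. Only injured 2 overlapped the uninjured range, and the log2 fold change of 0.22 (SE 0.13) did not pass the threshold (edgeR quasi-likelihood, Benjamini-Hochberg adjusted p = 0.177). Mfn2 was present at 27.3, 46.4 and 66.2 CPM in the lowest, median and highest uninjured sample and at 40.8, 43.1 and 43.6 CPM in the injured samples. Its uninjured values were spread widely, with uninjured 1 lowest and uninjured 5 and 6 highest, and the injured samples lay between them (log2 fold change -0.19, SE 0.23, adjusted p = 0.526 in the edgeR quasi-likelihood test with Benjamini-Hochberg adjustment). Its sign depended on the uninjured samples used, since the log2 fold change was 0.04 with uninjured 5 and 6 left out. In uninjured 5 and 6, Mfn1 was lower and Mfn2 higher than in each of uninjured 1 to 4.

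Dnm1l was lower after injury. It was present at 147, 219 and 235 CPM in the lowest, median and highest uninjured sample and at 145, 135 and 138 CPM in injured 1, injured 2 and injured 3/4. The 3 injured samples were close to each other and below every uninjured sample, with injured 1 just under uninjured 5. The mean was 203 ± 34.4 CPM (SD, n = 6) in uninjured and 139 ± 4.86 CPM (SD, n = 3) in injured samples, a log2 fold change of -0.54 (SE 0.16) with an adjusted p of 0.0190 by edgeR quasi-likelihood, Benjamini-Hochberg. Its extent differed with the uninjured libraries compared: the injured mean was lower by a log2 difference of -0.72 than uninjured 1 and 2, -0.65 than uninjured 3 and 4, and -0.20 than uninjured 5 and 6. All 32 alternative settings gave a lower fitted level of Dnm1l, and 24 brought it past the threshold. The call was lost when injured 1 (edgeR quasi-likelihood with Benjamini-Hochberg adjustment, adjusted p = 0.0552), injured 2 (0.0743), injured 3 and 4 (0.0772), uninjured 1 and 2 (0.0833) or uninjured 3 and 4 (0.0630) were left out, and with uninjured 5 and 6 left out the log2 fold change was -0.69 (adjusted p = 5.33e-05). It was also lost with similar libraries summed (edgeR quasi-likelihood, Benjamini-Hochberg adjusted p = 0.123), with injured 1 and 2 both left out (0.227) and among cells with 3 to 5% Malat1 (0.0668). Over the settings with more than 1 injured sample the adjusted p of Dnm1l ranged from 6.97e-06 to 0.123 (both edgeR quasi-likelihood, Benjamini-Hochberg). The lowest came from libraries 1 to 4, in which injured 3 and 4 enter as separate samples.

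Fis1 was present at 167, 211 and 368 CPM in the lowest, median and highest uninjured sample and at 178, 211 and 172 CPM in the injured samples. The high uninjured values were those of uninjured 5 and 6 (366 and 368 CPM), and the injured samples lay among uninjured 1 to 4 (167 to 215 CPM). The log2 fold change was -0.41 (SE 0.28, adjusted p = 0.251 by edgeR quasi-likelihood, Benjamini-Hochberg), and it was -0.02 with uninjured 5 and 6 left out.

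**Figure D2:**
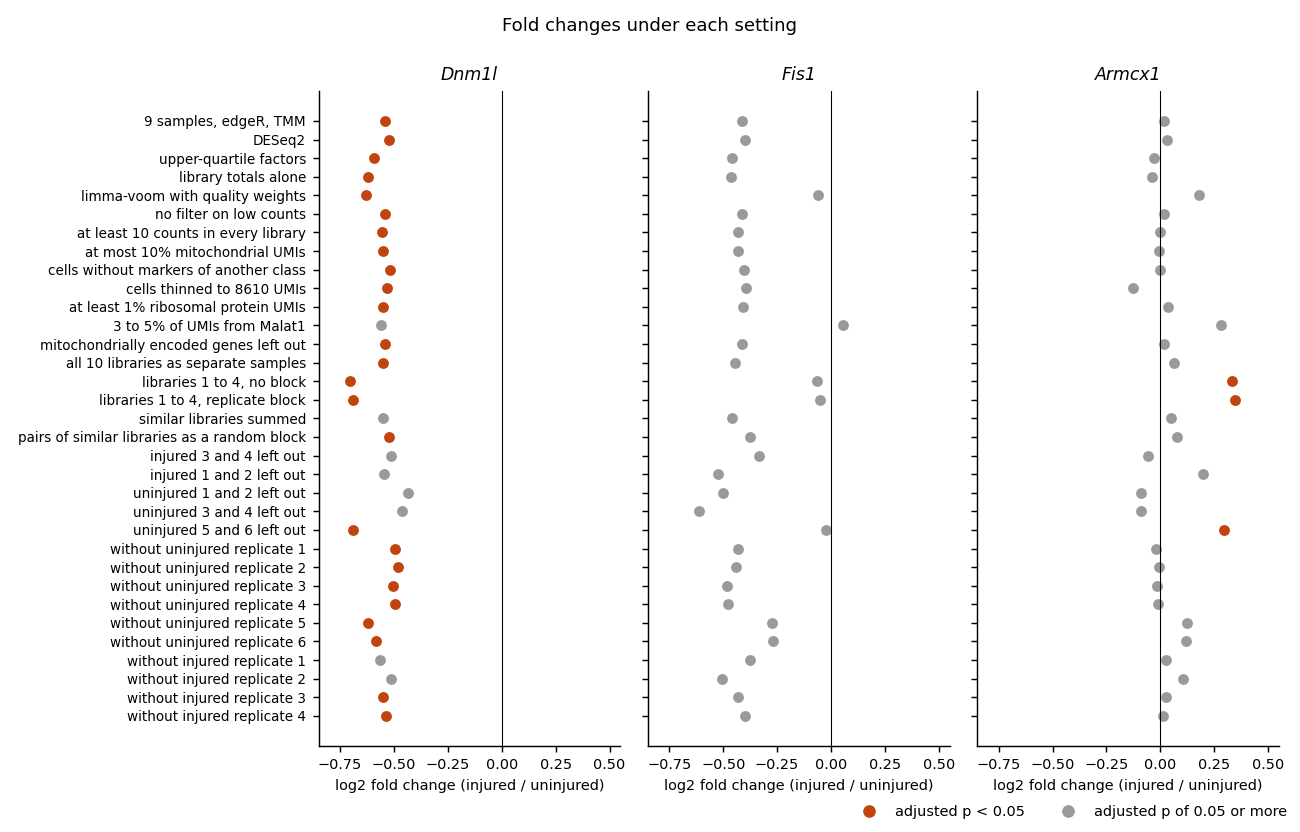
Log2 fold change (injured over uninjured) of Dnm1l, Fis1 and Armcx1 in the fit of 9 samples and in each of the 32 alternative settings, in red where the adjusted p was under 0.05. Dnm1l lies between -0.70 and -0.44 throughout, whereas Fis1 and Armcx1 move with the uninjured libraries that enter the test.

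The Miro genes were not past the threshold. Rhot1 was present at 58.6, 63.2 and 66.6 CPM in the lowest, median and highest uninjured sample and at 52.0, 53.0 and 60.6 CPM in the injured samples. Injured 1 and 2 lay below every uninjured sample and injured 3/4 lay within their range. The log2 fold change was -0.18 (SE 0.11, adjusted p = 0.208 by edgeR quasi-likelihood, Benjamini-Hochberg). Rhot2 was present at 9.77, 17.1 and 21.3 CPM in the lowest, median and highest uninjured sample and at 14.2, 11.9 and 15.4 CPM in the injured samples. All 3 injured samples lay above uninjured 1 and under the uninjured median, and the log2 fold change was -0.27 (SE 0.21, edgeR quasi-likelihood with Benjamini-Hochberg adjustment, adjusted p = 0.321). Both genes had a lower fitted level after injury in all 32 settings, of which 1 brought Rhot1 past the threshold (limma-voom with sample quality weights, adjusted p = 0.0231).

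The adaptor genes did not differ in a way the samples could resolve. Trak1 was present at 44.1, 50.3 and 67.6 CPM in the lowest, median and highest uninjured sample and at 50.4, 52.3 and 61.0 CPM in the injured samples. The injured samples lay inside the uninjured range, above uninjured 1, 5 and 6 and below uninjured 3 and 4 (SE of the log2 fold change 0.16, adjusted p = 0.990 by edgeR quasi-likelihood, Benjamini-Hochberg). Trak2 was present at 25.6, 31.8 and 40.8 CPM in the lowest, median and highest uninjured sample and at 37.6, 33.0 and 37.9 CPM in the injured samples. Uninjured 1 was higher than every injured sample and the other 5 uninjured samples were lower, and the log2 fold change of 0.21 (SE 0.15) was not past the threshold (edgeR quasi-likelihood, Benjamini-Hochberg adjusted p = 0.284).

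Armcx1 was present at 77.8, 83.96 and 135 CPM in the lowest, median and highest uninjured sample and at 99.5, 88.3 and 113 CPM in injured 1, injured 2 and injured 3/4. The injured samples were all above uninjured 1 to 4 (77.8 to 84.4 CPM) and all under uninjured 5 and 6 (135 and 134 CPM). The fitted log2 fold change was 0.02 (SE 0.21, adjusted p = 0.958 by edgeR quasi-likelihood, Benjamini-Hochberg). It thus joined a log2 difference of 0.30 from uninjured 1 and 2 and 0.28 from uninjured 3 and 4 with one of -0.43 from uninjured 5 and 6. With uninjured 5 and 6 left out, Armcx1 was past the threshold with a log2 fold change of 0.30 (edgeR quasi-likelihood, Benjamini-Hochberg adjusted p = 0.0271, within a range of 0.00900 to 1.000 over all settings). The lowest adjusted p came from libraries 1 to 4, in which injured 3 and 4 enter as separate samples. The chi-square ratio over noise of injured 1 was 17.4 to 28.3 with uninjured 1 to 4, and 40.4 and 41.1 with uninjured 5 and 6. For injured 3 it was 18.8 to 43.6, and 42.7 and 41.4, which overlapped. The ratio also grows with the UMI totals of the libraries compared. The highest value of injured 3 was with uninjured 4, the library with the most UMIs (23180399), so the ratio does not rank these libraries by closeness. Whether uninjured 5 and 6 or the other uninjured libraries are the closer match to the injured ones was not tested. Armcx1 lies on the X chromosome, from 133618076 to 133624113 on the forward strand of GRCm39, and the female share of cells differed between samples as described above. Armcx1 was higher in injured 3/4, where few cells held Xist, than in injured 1 and 2. The part of sex was not tested for these values or for those of any other gene.

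The difference between uninjured 5 and 6 and the other uninjured libraries was a feature of most of these genes. Mfn2, Fis1, Rhot2 and Armcx1 were higher in both than in each of uninjured 1 to 4, with log2 differences of 0.70, 0.96, 0.50 and 0.72, and Opa1, Mfn1, Dnm1l and Trak2 were lower in both, with log2 differences of -0.23, -0.25, -0.49 and -0.39. Only Rhot1 and Trak1 overlapped. Such separation was found for 58.5% of all genes tested, 29.9% higher and 28.7% lower. Malat1, a nuclear RNA, took up 1.72% and 1.83% of the UMIs of uninjured 5 and 6, 3.03% to 4.88% of those of uninjured 1 to 4, and 6.09% to 7.98% of those of the injured samples. Mitochondrially encoded transcripts made up 2.84% to 5.69% of the UMIs of uninjured and 2.03% to 3.87% of those of injured samples, and ribosomal protein transcripts 3.04% to 4.05% and 4.78% to 5.86%. When only cells were kept in which Malat1 made up 3 to 5% of UMIs, the log2 fold change was -0.56 for Dnm1l (edgeR quasi-likelihood, Benjamini-Hochberg adjusted p = 0.0668) and 0.06 for Fis1. This limit kept 7 of 267 cells in uninjured 5 and 8 of 201 in uninjured 6, against 278 of 651 in uninjured 4, so that uninjured 5 and 6 were nearly emptied. Of the pathway genes described further on, 19 of the 73 still tested were past the threshold, where 32.9% of all genes were. Those described that lost their call were Dnm2 (0.42), Fez1 (-0.29), Apool (0.46), Armcx5 (-0.57), Bcl2l13 (0.43), Klc2 (-0.22), Pink1 (-0.31) and Tomm22 (-0.46). Their adjusted p were 0.102 to 0.534 by edgeR quasi-likelihood, Benjamini-Hochberg. With at most 10% mitochondrial UMIs or at least 1% ribosomal protein UMIs in a cell, Dnm1l was past the threshold (edgeR quasi-likelihood, Benjamini-Hochberg adjusted p = 0.0171 and 0.0222). The part of these shares in the difference between the conditions was not tested beyond these settings.

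Markers of other retinal cells were present in every sample. The 8 RGC markers were all detected and summed to 6080 to 7778 CPM in uninjured and to 4122, 4616 and 5350 CPM in the injured samples, with Sncg as the most abundant. Of these 8, Tubb3 was higher and 5 were lower after injury (Rbpms, Sncg, Nefl, Pou4f1 and Pou4f2). The 7 amacrine markers had a summed level of 178, 270 and 328 CPM in the lowest, median and highest uninjured sample and 213, 170 and 102 CPM in the injured samples. Cells with at least 3 amacrine markers made up 5.47% (uninjured 6) to 30.7% (uninjured 4) of the cells of uninjured libraries and 3.61% to 9.76% of those of injured libraries, and cells with as many Müller glia markers up to 10.1% and 5.86%. These shares were counted over all UMIs of a cell and not at equal depth, and uninjured cells were deeper, so they do not compare the conditions. The 7 Müller glia markers summed to 107, 138 and 178 CPM in the lowest, median and highest uninjured sample and to 117, 130 and 106 CPM in the injured samples, with 3 higher (Rlbp1, Glul and Sox9) and 1 lower (Dkk3) among the 5 that were tested. The most abundant was Dkk3 in every uninjured sample (68.7 to 117 CPM) and Glul in every injured library (73.7 to 88.96 CPM). The 8 photoreceptor markers summed to 3.52 to 20.05 CPM in uninjured and to 10.1, 31.3 and 12.4 CPM in injured samples, the 5 bipolar markers, with Trpm1 highest on average, to 0.876 to 3.87 and 0.506, 1.06 and 0.727 CPM, and the 8 microglia markers to 5.45 to 19.5 and 13.8, 18.9 and 7.80 CPM. Among 2 photoreceptor markers tested, Pde6b was higher after injury, with 8.43 to 11.3 CPM in injured libraries, and Sag, most abundant in uninjured samples, was below it in injured 1, 3 and 4. Among 2 microglia markers tested, Cx3cr1 was higher after injury and the most abundant in each injured library, whereas P2ry12 was above it in uninjured 1 to 4. Of the 6 astrocyte and vascular markers, Cdh5 was at 0 in every library and the others, with Pecam1 highest on average, summed to 0.214 to 2.05 CPM in uninjured and to 2.02, 4.26 and 2.38 CPM in injured samples. Without the cells that held at least 3 markers of any other class, the log2 fold change of Dnm1l was -0.52, and it was again past the threshold. In the same setting none of the other 9 genes was past the threshold. Of the 77 tested pathway genes described further on 28 were, where 44.3% of all genes were (edgeR quasi-likelihood, Benjamini-Hochberg). With all cells the number was 27, where 44.0% of all genes were past it. The markers remaining in the other cells were not accounted for.

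The share of cells with a UMI was compared at equal depth, because the median injured cell held 12708 to 14695 UMIs and the median uninjured cell 20437 to 34337. Each cell was thinned at random to the same number of UMIs, which left 1649 uninjured and 1313 injured cells and removed 34 and 296 shallower cells. In these numbers, barcodes shared by injured 3 and 4 are counted in each library. On this scale Dnm1l was detected in 65.9%, 84.1% and 86.3% of cells in the lowest, median and highest uninjured sample and in 67.1%, 67.8% and 67.1% of cells in the injured samples. Uninjured 5 was as low as the injured samples, and the mean difference of -12.3 percentage points had an exact two-sided permutation p of 0.0952. At the smaller depth of 5000 UMIs, Dnm1l was detected in 51.7% to 69.1% of cells in the uninjured and 45.2% to 48.1% in the injured samples, which were fully separate (difference -16.4 percentage points, exact permutation p = 0.0238). This depth also kept more cells, 335 against 295 in injured 1 and 263 against 252 in uninjured 5. The parts of depth and of these cells in the overlap were not tested. Rhot2 was detected in 10.8%, 13.4% and 16.0% of cells in the lowest, median and highest uninjured sample and in 10.2%, 7.53% and 11.3% in the injured samples, with an exact two-sided permutation p of 0.0476 that is not adjusted for the 10 genes compared. At 5000 UMIs its exact p was 0.0952 (difference -2.63 percentage points), and Dnm1l was the only gene under 0.05. The other 8 genes had exact permutation p from 0.143 to 1.000, where 0.0238 is the smallest p that 6 samples against 3 allow. Before thinning, the share was lower in every injured sample than in every uninjured sample for 9 of the 10 genes, with mean differences from -24.1 to -10.8 percentage points, and the exception was Trak2. Of all genes tested 54.3% were separate and lower in this way before thinning, 19.8% after it and 16.7% at 5000 UMIs. An exact p under 0.05 was found for 65.8% of all genes before thinning, 40.7% after it and 36.8% at 5000 UMIs. The number of the 10 genes with a UMI in a thinned cell averaged 4.29 to 4.53 in the uninjured samples and 3.97, 3.92 and 4.25 in injured 1, injured 2 and injured 3/4. No cells known to lack these genes were set apart, so the part of free RNA in these shares was not tested.

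**Figure D3:**
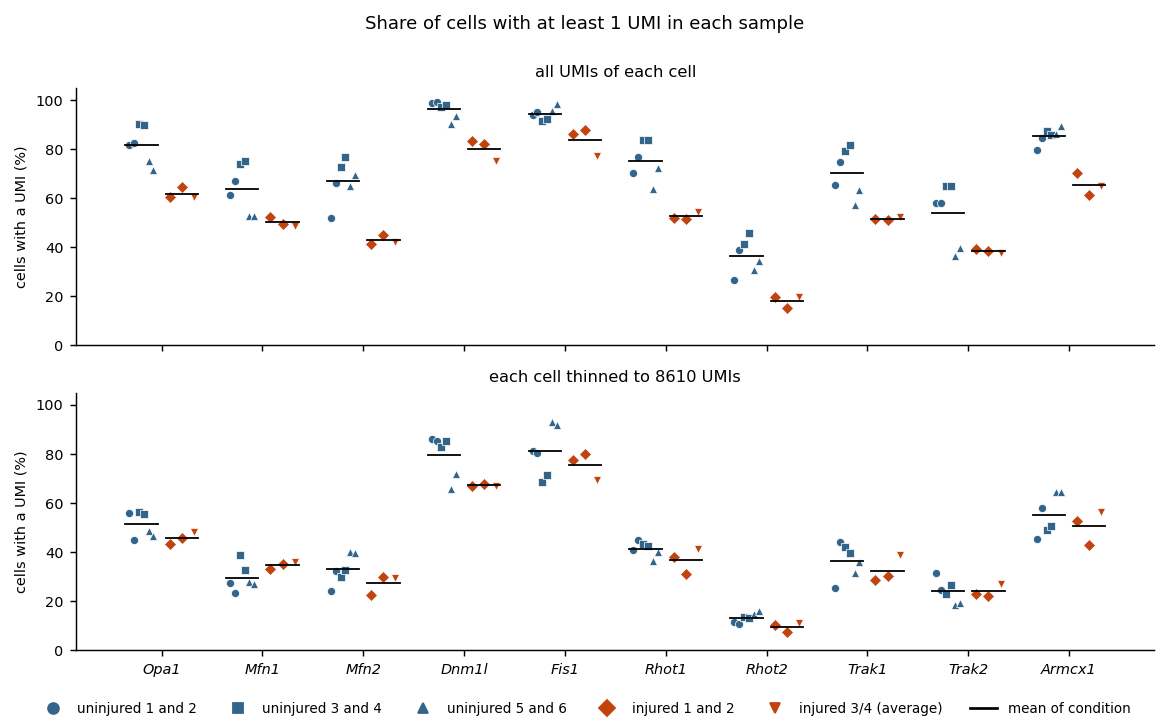
Percentage of cells with at least 1 UMI of each gene in each sample, with all UMIs of a cell (upper panel) and with each cell thinned to equal depth (lower panel), and lines at the condition means. The injured samples lie lower for nearly every gene before thinning and overlap the uninjured samples for all 10 genes after it.

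RGC subclasses were compared within uninjured libraries, as cells with at least 2 UMIs of a subclass marker in the thinned cell against the other cells of the same library. For Cartpt, a gene known from direction-selective RGCs, 659 positive cells in 6 libraries were compared with 990 others, and 1 of the 10 genes was past the threshold where 9.01% of all genes were (5.09% higher in positive cells). This was Fis1, at a mean of 274 CPM in positive and 239 CPM in other cells and higher in positive cells in 6 of 6 libraries (log2 fold change 0.23, SE 0.07, edgeR quasi-likelihood with Benjamini-Hochberg adjustment, adjusted p = 0.0420). Fis1 was also higher in 33 cells positive for Eomes, in the 2 libraries that held at least 10 such cells, with a log2 fold change of 0.49 (SE 0.17, edgeR quasi-likelihood with Benjamini-Hochberg adjustment, adjusted p = 0.0353), in a comparison where 12.0% of all genes were past the threshold (6.07% higher). These libraries were uninjured 3 (18 positive cells) and uninjured 4 (15 positive cells), a pair of similar libraries. With at least 1 UMI of the marker neither call held, at log2 fold changes of 0.32 for Cartpt, again higher in 6 of 6 libraries, and 0.18 for Eomes (edgeR quasi-likelihood, Benjamini-Hochberg adjusted p = 0.0518 and 0.304). For Eomes this limit also brought 5 libraries into the test in place of 2, so the limit and the libraries cannot be told apart. For Cartpt the call did not hold with at least 4 UMIs either (edgeR quasi-likelihood, Benjamini-Hochberg adjusted p = 0.217). The log2 fold change there was 0.19 (SE 0.08), with Fis1 higher in positive cells in 5 of 6 libraries. For Foxp2 (283 positive cells in 5 libraries) and Tfap2d (131 positive cells in 4 libraries) none of the 10 genes was past the threshold of the edgeR quasi-likelihood test with Benjamini-Hochberg adjustment, where 8.66% and 6.02% of all genes were (3.99% and 2.69% higher). Log2 fold changes ran from -0.13 to -0.0027 for Foxp2 and from -0.03 to 0.24 for Tfap2d. Dnm1l had log2 fold changes of -0.02 with Cartpt, -0.23 with Eomes, -0.13 with Foxp2 and 0.09 with Tfap2d, none past the threshold. At least 2 UMIs of Spp1 or Tbr1 were found in too few cells for a test. With at least 1 UMI of Tbr1, in 3 libraries, none of the 10 genes was past the threshold (edgeR quasi-likelihood, lowest Benjamini-Hochberg adjusted p = 0.224), where 684 of 13213 genes were. Free RNA of the markers was not measured, so cells positive for a marker are not shown to be that subclass.

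The genes most like each of the 10 in their levels over the 9 samples were found among 8309 other genes whose log2 CPM averaged 4 or more, by Pearson's r of log2 CPM. For Armcx1 they were Hmg20b (r = 0.984), Timm23 (r = 0.977), which encodes a subunit of the inner membrane translocase, and Rabggtb (r = 0.977). The most similar gene was Gm10649 for Dnm1l (r = 0.993), Tubg1 for Fis1 (r = 0.993), Eif2ak4 for Opa1 (r = 0.981), Nfrkb for Mfn1 (r = 0.983) and Cyp46a1 for Mfn2 (r = 0.974). For the transport genes it was Dnajc10 for Rhot1 (r = 0.948), Clybl for Rhot2 (r = 0.944), Ddhd1 for Trak1 (r = 0.917) and Rsrc1 for Trak2 (r = 0.976). The samples fall into pairs of similar libraries, and the parts of these pairs and of injury in r cannot be told apart, so no test of r was made.

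The wider pathway was described with lists of 80 other genes, of which 77 were tested. By edgeR quasi-likelihood with Benjamini-Hochberg adjustment, 13 were higher and 14 lower after injury, against 21.3% higher and 22.7% lower of all genes tested. The median log2 fold change of the 77 genes was -0.01, against -0.03 over all genes.

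Among the fission factors, 2 were higher and 1 lower of the 10 that were tested out of 11, against 21.3% and 22.7% of all genes tested. Their median log2 fold change was 0.02. Mtfp1, an inner membrane protein that promotes fission, was present at 27.6, 33.8 and 84.3 CPM in the lowest, median and highest uninjured sample and at 10.5 to 11.6 CPM in the injured samples. Every injured sample was far below every uninjured one, of which uninjured 5 and 6 were the highest, and the log2 fold change was -2.09 (SE 0.42, adjusted p = 0.00176 by edgeR quasi-likelihood, Benjamini-Hochberg). The dynamin Dnm2 rose from a median of 34.9 CPM in uninjured samples (29.6 to 41.1) to 63.9, 61.8 and 51.3 CPM in the injured samples, with a log2 fold change of 0.74 (SE 0.14, edgeR quasi-likelihood with Benjamini-Hochberg adjustment, adjusted p = 0.00121). The other higher gene was Inf2, a formin named here after its values were seen. Mff, Mief1 and Mief2, which encode receptors for Dnm1l, were not past the threshold, with log2 fold changes of 0.18, 0.04 and -0.29, and neither was Gdap1 (-0.01). Mff depended on the uninjured libraries used, with a log2 difference of 0.42 when compared with uninjured 1 and 2, 0.54 with uninjured 3 and 4 and -0.29 with uninjured 5 and 6. With uninjured 5 and 6 left out it was past the threshold (edgeR quasi-likelihood, Benjamini-Hochberg adjusted p = 7.53e-04, log2 fold change 0.48).

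Of the 19 genes for fusion and inner membrane shape, 17 were tested. Among these, 2 were higher and 1 was lower, against 21.3% and 22.7% of all genes tested, and the median log2 fold change was 0.07. Phb1 is at 0 UMIs under that name, and the files also hold counts under the symbol Phb, which was not on the list. Miga2, which promotes outer membrane fusion, was present at 18.2, 27.2 and 32.9 CPM in the lowest, median and highest uninjured sample and at 13.7, 11.7 and 15.7 CPM in the injured samples (log2 fold change -0.91, SE 0.21, edgeR quasi-likelihood with Benjamini-Hochberg adjustment, adjusted p = 0.00467). The cristae genes Apool and Chchd3 were higher in each injured than in each uninjured sample, with log2 fold changes of 0.65 (SE 0.15) and 0.41 (SE 0.11) and adjusted p of 0.00395 and 0.0101 by edgeR quasi-likelihood, Benjamini-Hochberg. The call of Chchd3 was lost without injured 1 (edgeR, Benjamini-Hochberg adjusted p = 0.0541, log2 fold change 0.38). The proteases Oma1 and Yme1l1, which cut Opa1, were not past the threshold, with log2 fold changes of -0.04 and -0.12.

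Transport and docking genes held the largest change of the lists. All 19 were tested, and 4 were higher and 5 lower, against 21.3% and 22.7% of all genes tested. The median log2 fold change was -0.22. Mgarp, which encodes a mitochondrial protein that takes part in mitochondrial transport along axons, was present at 692, 823 and 1618 CPM in the lowest, median and highest uninjured sample and at 89.6, 97.9 and 61.8 CPM in injured 1, injured 2 and injured 3/4. Every injured sample was far below every uninjured sample, and the log2 fold change was -3.66 (SE 0.38, adjusted p = 1.40e-05 by edgeR quasi-likelihood, Benjamini-Hochberg). Snph, the syntaphilin that anchors mitochondria to microtubules, was present at 56.3, 71.7 and 84.1 CPM in the lowest, median and highest uninjured sample and at 156, 131 and 135 CPM in the injured samples. It was thus about as high in every injured sample, above all uninjured ones, with a log2 fold change of 1.00 (SE 0.14, adjusted p = 1.62e-04 by edgeR quasi-likelihood, Benjamini-Hochberg). Hap1, which binds kinesin and dynactin, rose to 47.1, 38.8 and 25.8 CPM from a median of 15.5 CPM (14.8 to 20.7), and Ogt, the enzyme that modifies Trak proteins with N-acetylglucosamine, rose to 228, 231 and 275 CPM from a median of 143 CPM (99.4 to 152). Their log2 fold changes were 1.16 (SE 0.18) and 0.89 (SE 0.16), with adjusted p of 3.28e-04 and 8.15e-04 by edgeR quasi-likelihood, Benjamini-Hochberg. The kinesin partners Fez1 and Klc2 fell by 0.72 (SE 0.18) and 0.95 (SE 0.34) on the log2 scale, with adjusted p of 0.00600 and 0.0412 by edgeR quasi-likelihood, Benjamini-Hochberg. Klc2 was far higher in uninjured 5 and 6 (112 and 109 CPM) than in uninjured 1 to 4 (37.7 to 55.6 CPM), and the injured samples were lower than both (34.1 to 36.5 CPM). Its call was lost without uninjured 5, uninjured 6, injured 1 or injured 2 (edgeR quasi-likelihood, Benjamini-Hochberg adjusted p = 0.0567, 0.0552, 0.108 and 0.121). With both uninjured 5 and 6 left out Klc2 was past the threshold (edgeR quasi-likelihood, Benjamini-Hochberg adjusted p = 0.0118), with a smaller log2 fold change of -0.45.

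The kinesin-1 heavy chains, the motors to which Trak proteins bind, were not past the threshold. Kif5a was present at 274 to 440 CPM in uninjured and 262 to 328 CPM in injured samples, Kif5b at 219 to 245 and 179 to 216 CPM, and Kif5c at 338 to 426 and 324 to 358 CPM. Their log2 fold changes were -0.27, -0.22 and -0.15, with adjusted p of 0.287, 0.171 and 0.413 by edgeR quasi-likelihood, Benjamini-Hochberg. For Kif5b the injured values all lay under the uninjured ones. Kif5a was past the threshold with uninjured 5 and 6 left out (edgeR, Benjamini-Hochberg adjusted p = 0.0171, log2 fold change -0.43). On the dynein side, the dynein gene Dync1h1 was higher and the dynactin gene Dctn1 lower after injury, both past the threshold. Their log2 fold changes were 0.68 and -0.64, and both genes were named after their values were seen.

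Of the 6 relatives of Armcx1, 2 were higher and 2 lower, against 21.3% and 22.7% of all genes tested. Their median log2 fold change was -0.25. Armcx3, whose product binds Miro and Trak proteins, was present at 60.0, 63.9 and 67.8 CPM in the lowest, median and highest uninjured sample and at 95.6, 102 and 120 CPM in injured 1, injured 2 and injured 3/4. Uninjured samples were all close to each other, uninjured 5 and 6 among them, and every injured sample was higher (log2 fold change 0.73, SE 0.11, adjusted p = 2.54e-04 by edgeR quasi-likelihood, Benjamini-Hochberg). Armc10 was present at 7.41 to 10.4 CPM in uninjured and 13.1 to 16.9 CPM in injured samples, with a log2 fold change of 0.75 (SE 0.16, edgeR quasi-likelihood with Benjamini-Hochberg adjustment, adjusted p = 0.00303). Armcx5 was lower in each injured sample (16.6 to 17.5 CPM) than in each uninjured one (21.5 to 30.0 CPM), with a log2 fold change of -0.56 (SE 0.14, edgeR quasi-likelihood with Benjamini-Hochberg adjustment, adjusted p = 0.00605). Armcx6 had few counts, at 2.80 to 7.25 CPM in uninjured and 2.101 to 3.37 CPM in injured samples, and its decrease (log2 fold change -0.98, SE 0.31, edgeR quasi-likelihood with Benjamini-Hochberg adjustment, adjusted p = 0.0221) was lost without injured 1 (adjusted p = 0.101). Armcx2 (-0.28) and Armcx4 (-0.22) were not past the threshold. The difference in change between Armcx1 and Armcx3 was not tested, and neither was the part of sex in the changes of this family.

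**Figure D4:**
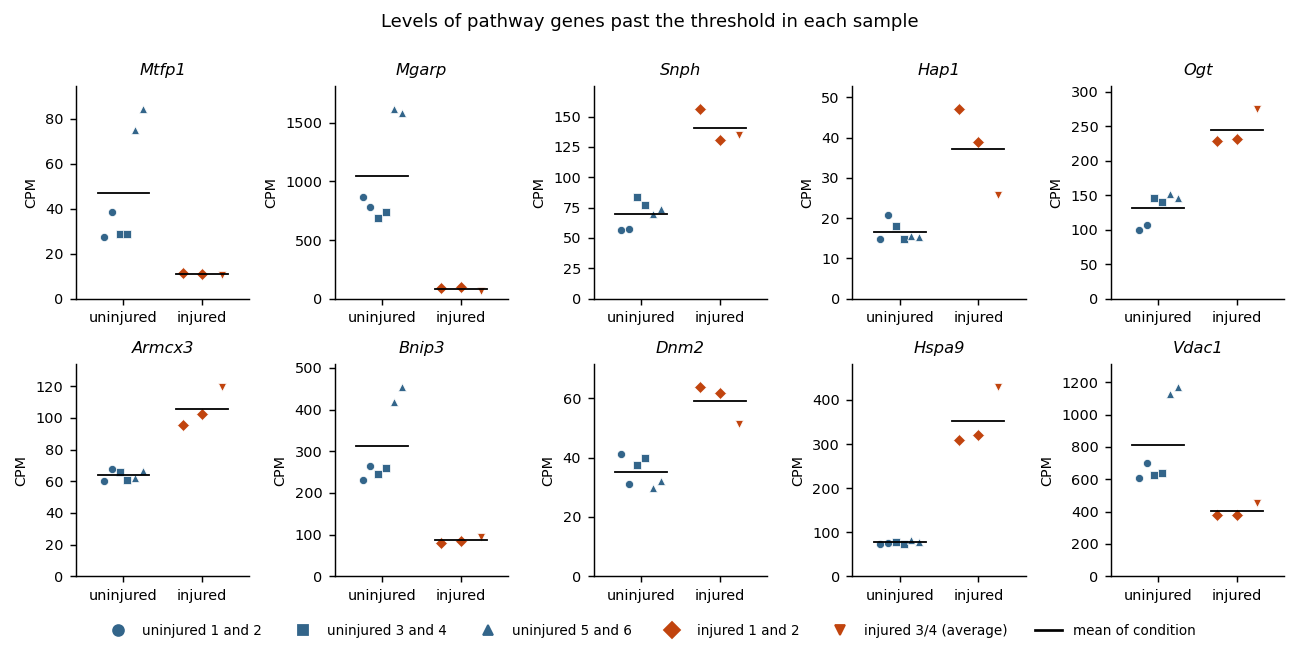
Level (CPM) of 10 pathway genes past the threshold in 6 uninjured samples (blue) and 3 injured samples (red), with similar libraries drawn with the same symbol and lines at the condition means. Mgarp, Mtfp1 and Bnip3 are lower in every injured sample and Snph, Armcx3 and Hspa9 are higher, with uninjured 5 and 6 at the top for Mgarp, Mtfp1, Bnip3 and Vdac1.

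Among the 13 genes for mitophagy and turnover, all tested, 2 were higher and 3 lower, against 21.3% and 22.7% of all genes tested. Their median log2 fold change was -0.32. The mitophagy receptor gene Bnip3 was present at 231, 263 and 455 CPM in the lowest, median and highest uninjured sample and at 79.8, 84.9 and 93.5 CPM in the injured samples. No injured sample came near an uninjured one, and the log2 fold change was -1.86 (SE 0.26, adjusted p = 1.16e-04 by edgeR quasi-likelihood, Benjamini-Hochberg). Pink1, a kinase gene of mitochondrial quality control, was at 72.7 to 114 CPM in uninjured and 74.1, 70.1 and 52.8 CPM in injured samples, which overlapped, and the log2 fold change was -0.56 (SE 0.17, edgeR quasi-likelihood with Benjamini-Hochberg adjustment, adjusted p = 0.0192). That of Pink1 was not past the threshold with injured 3 and 4 (edgeR, Benjamini-Hochberg adjusted p = 0.125), injured 1 and 2 (0.0545), uninjured 1 and 2 (0.0822) or uninjured 3 and 4 (0.0547) left out. Marchf5, a ligase of the outer membrane that acts on mitofusins and Dnm1l, and Bcl2l13, a mitophagy receptor, were higher in every injured sample, with log2 fold changes of 0.71 (SE 0.19) and 0.63 (SE 0.19) and adjusted p of 0.0115 and 0.0176 by edgeR quasi-likelihood, Benjamini-Hochberg. Bcl2l13 was not past the threshold without injured 1 (edgeR, Benjamini-Hochberg adjusted p = 0.0812) or with cells thinned to equal depth (0.0887, log2 fold change 0.58).

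Of the 12 genes taken as a gauge of mitochondrial content, 1 was higher and 2 were lower, against 21.3% and 22.7% of all genes tested. Their median log2 fold change was 0.11. Hspa9, the matrix chaperone mortalin, was present at 72.1, 76.9 and 83.1 CPM in the lowest, median and highest uninjured sample and at 309, 320 and 430 CPM in injured 1, injured 2 and injured 3/4. The injured samples were all several times higher, with a log2 fold change of 2.20 (SE 0.13, adjusted p = 1.89e-07 by edgeR quasi-likelihood, Benjamini-Hochberg). The outer membrane channel gene Vdac1 was present at 608, 668 and 1173 CPM in the lowest, median and highest uninjured sample and at 378, 378 and 454 CPM in the injured samples, with a log2 fold change of -1.01 (SE 0.26, edgeR quasi-likelihood with Benjamini-Hochberg adjustment, adjusted p = 0.00793). Tomm22, a subunit of the outer membrane import pore, was at 89.3 to 237 and 64.1 to 80.4 CPM, with a log2 fold change of -0.94 (SE 0.34, edgeR quasi-likelihood with Benjamini-Hochberg adjustment, adjusted p = 0.0395). It was not past the threshold without uninjured 5, injured 1 or injured 2 (edgeR quasi-likelihood, Benjamini-Hochberg adjusted p = 0.0581, 0.141 and 0.0914), and was past it with both uninjured 5 and 6 left out (adjusted p = 0.0128, log2 fold change -0.44). With injured 1 and 2 both left out, 1 injured sample remains and the spread comes from the uninjured samples alone, so this setting says nothing about spread after injury. Log2 fold changes in it were 0.92 for Armcx3, 0.90 for Armc10, -1.74 for Bnip3 and -0.76 for Dctn1, a dynactin subunit named after its values were seen. With similar libraries summed, Chchd3, Bcl2l13, Armcx6, Apool, Armcx5, Fez1, Klc2, Marchf5, Miga2, Pink1, Tomm22 and Vdac1 were among the genes no longer past the threshold (edgeR quasi-likelihood, Benjamini-Hochberg adjusted p = 0.0502 to 0.163). When each pair of similar libraries shared a random effect, Chchd3, Bcl2l13, Armcx6, Klc2 and Tomm22 were not past it (limma-voom, Benjamini-Hochberg adjusted p = 0.0566 to 0.175).

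Among genes counted in the files, some overlap the 10 genes in the annotation, and genes that are only in the annotation are left aside here. Cell Ranger, which the study's methods ran with default parameters, counts reads on the strand of the gene by default. Dnm1l occupies 16128677 to 16176904 of chromosome 16 (GRCm39, reverse strand), and Yars2, on the opposite strand from 16120366 to 16157367, and Gm49521 overlap it. Mfn1 is overlapped by Gnb4, Mfn2 by Fv1 and Trak2 by Stradb, each on the opposite strand. Genes on the same strand overlap Rhot2 (Gm20683 and Wdr90) and Trak1 (Gm34655). These overlaps are of whole genes, introns included, and how reads in the shared stretches were counted was not examined.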

How the data were processed

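scRNA-seq of RGCs was analysed in 6 uninjured and 4 injured libraries. Reads were aligned to mm39, and the values the authors deposited are counts of UMIs for each gene in each RGC, not normalized. The submitters' processing notes name Cell Ranger 7.0.1, the v3 kit and a NovaSeq sequencer, whereas the paper's methods name other versions of the software, kit and sequencer. All 3292 cells met the limits the authors state for genes, UMIs and mitochondrial share. The paper gives the same number of uninjured cells but fewer injured cells than were analysed here. No doublet caller was run, because their upper limit on UMIs preceded deposit, and a setting without cells holding at least 3 markers of another class was run in its place.

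Sums per library were made in Python 3.11.15 (pandas 2.3.3, numpy 2.4.6, scipy 1.17.1), and injured 3 and 4 were averaged with rounding. The test was that of edgeR 4.0.16 under R 4.3.3, with defaults of filterByExpr, TMM factors, a robust quasi-likelihood fit and condition as the only term. Benjamini-Hochberg adjustment was over all genes tested, with a threshold of 0.05. The procedure was checked on simulated independent samples without pairs of similar libraries, so that check does not cover such pairs. Standard errors were obtained from the fold change and its F statistic. Differences from pairs of uninjured libraries are differences of mean log2 CPM. Levels of the marker lists are scaled by library totals, without TMM factors. Subclass tests had library as a term. For shares of cells, samples were permuted exactly (two-sided, p not adjusted), and cells too shallow for thinning were left out.

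The 10 genes, the lists and the tests were chosen with earlier results of these data known. From each list, the genes named were up to 3 largest rises and 3 largest falls that passed the test and had an average log2 CPM of 4 or more, and in addition the kinesin-1 heavy chains, Snph and the Armcx family. Not every gene that met this rule is given. Further genes given with a fold change alone were named after their values were seen. Alternatives were DESeq2 1.42.0, other scaling factors, limma-voom (limma 3.58.1) with sample quality weights, other filters on genes and cells, each library left out in turn, other groupings of similar libraries, and libraries 1 to 4 with or without a block for replicate number. Leaving out each pair of similar uninjured libraries was chosen after seeing the data. Gene positions are from GENCODE vM39 (GRCm39, the same assembly as mm39).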

Additional observations from a re-analysis of the deposited data

Results flagged for a closer look

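In 2 cases a value stood far from the other 5 uninjured samples (Dixon's ratio of the gap to the range 0.676 and 0.790). The lowest uninjured sample for Chchd3 was at 86.9 CPM (uninjured 2), where the others were at 99.8 to 106 CPM. The highest uninjured sample for the summed photoreceptor markers was at 20.05 CPM (uninjured 5), where the others were at 3.52 to 6.99 CPM. In all, 70 groups of uninjured values were examined and these 2 passed the limit, which about 1 group in 20 passes by chance.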

How the results depend on the processing

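Of the 10 genes, 1 was past the threshold in the fit of 9 samples (44.0% of all genes). The number was 3 with limma-voom and quality weights (58.0% of all genes) and with libraries 1 to 4 (59.0%). It was 2 with libraries 1 to 4 and their replicate block (56.1%) and with uninjured 5 and 6 left out (54.1%). It was 0 with cells of 3 to 5% Malat1 (32.9%) and with similar libraries summed (27.1%). With injured 3 and 4 (35.3%), uninjured 1 and 2 (40.7%) or uninjured 3 and 4 (44.2%) left out it was also 0 (0 to 1 with single libraries left out). Libraries 1 to 4 enter injured 3 and 4 as separate samples, although 421 barcodes were found in both. Dnm1l was lower in all 32 settings, but not past the threshold with cells of 3 to 5% Malat1 (log2 fold change -0.56), similar libraries summed (-0.55), or injured 3 and 4 (-0.51), injured 1 and 2 (-0.55), uninjured 1 and 2 (-0.44) or uninjured 3 and 4 (-0.46) left out, and ranged from -0.62 to -0.48 with single libraries left out. The cause was not tested. Opa1 passed the threshold with limma-voom (-0.25) and libraries 1 to 4 (-0.27), Rhot1 with limma-voom (-0.25), and Armcx1 with libraries 1 to 4 (0.33), their replicate block (0.35) and uninjured 5 and 6 left out (0.30). The fitted sign turned, without passing the threshold, for Mfn1 (-0.088), Fis1 (0.057), Trak2 (-0.28) and Armcx2 (0.053) among cells of 3 to 5% Malat1, for Mfn2 with libraries 1 to 4 (0.038), their replicate block (0.089) and uninjured 5 and 6 left out (0.0375), and for Armcx2 with the last of these (0.0008). Trak1 turned to 0.012 with DESeq2, 0.0066 with at most 10% mitochondrial UMIs, 0.037 with all 10 libraries as samples, 0.033 with similar libraries summed, 0.026 with their pairs as a random block, 0.17 without injured 1 and 2, 0.20 without uninjured 3 and 4, and ranged from -0.043 to 0.090 with single libraries left out. Armcx1 turned to -0.029 with upper-quartile factors, -0.037 with library totals, -0.0013 with at least 10 counts in every library, -0.0045 with at most 10% mitochondrial UMIs, -0.13 with thinned cells, -0.057 without injured 3 and 4, -0.089 without uninjured 1 and 2 and -0.087 without uninjured 3 and 4, and ranged from -0.021 to 0.12 with single libraries left out. In the fit of 9 samples 27 of 77 pathway genes were past the threshold, where 44.0% of all genes were. With libraries 1 to 4 the number was 43 of 77 (59.0% of all genes), and 43 of 78 with their replicate block (56.1%). With similar libraries summed it was 12 of 78 (27.1% of all genes). Over all genes the number was 6256, but 3528 among cells of 3 to 5% Malat1. The replicate numbers do not pair the samples (same-number correlations -0.0592, 0.0119, -0.0454 and -0.0517), and with the replicate block 8307 genes were past the threshold, against 8230 without it. The median over all genes was -0.17 with no filter on low counts and -0.10 with library totals alone. Of the 23 pathway genes past the threshold that were chosen for description, 7 were past it in every setting (Snph, Ogt, Mgarp, Armcx3, Armc10, Bnip3 and Hspa9), of which the setting without injured 1 and 2 holds 1 injured sample. Most of these 23 were chosen as the largest changes past the threshold in their list, so their holding in other settings is partly built in. The same count over all genes was not made. Unthinned, 9 of the 10 genes had an exact permutation p under 0.05 for the share of cells (65.8% of all genes), against 1 when thinned (40.7% of all genes), and the sign of the difference turned for Mfn1 (-13.7 percentage points) and Trak2 (-15.3). At 5000 UMIs it turned for Rhot1 (0.072) and Trak1 (0.479). In subclasses, 2 calls became 0 with at least 1 and with at least 4 UMIs of the marker, and Eomes could not be fitted with at least 4.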
